A study of Rattus norvegicus with 12 samples.

Results

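The genes described here are Notch ligands, Notch receptors and the Hes and Hey factors that Notch switches on, 10 genes in all: Dll4, Jag1 and Jag2, Notch1, Notch3 and Notch4, and Hes1, Hey1, Hey2 and Heyl. The list itself was drawn up with earlier results of these data known, and from it every probe set was taken whose platform annotation names 1 single gene on the list. This gave 15 of the 31099 probe sets on the array, a probe set being a group of short probes against 1 transcript. Of these, 14 were bright enough over the 12 arrays to be among the 18625 probe sets tested, and the remaining one, the dimmest of 3 for Notch4, lay between 3.9 and 8.8 on all arrays.

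The data are Affymetrix expression arrays of the right lung of rats from 2 strains: the Dahl salt-sensitive rat (SS), which develops hypertension on a high-salt diet, and the Brown Norway rat (BN). Each strain gave lungs from animals ventilated in a mode given in the labels only as HTV, and lungs from control animals. The 4 groups are therefore SS HTV, SS control, BN HTV and BN control, with 3 arrays each, and each array carries an animal number of its own. All animals weighed 250 to 350 g, the label of every group describes exposure to room air, and all lungs were flushed with saline through the pulmonary artery before freezing. No duration or tidal volume of the ventilation, no age and no sex are given in the labels, and neither strain carries a transgene or deletion according to them.

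Notch receptors sit in the cell membrane and are switched on by ligands on the neighbouring cell. Binding lets proteases release the intracellular part of the receptor, which enters the nucleus, joins the DNA-binding protein RBPJ and its Mastermind coactivators, and turns on repressors of the Hes and Hey families. In blood vessels, Dll4, Notch1 and Notch4 are known from endothelial cells, where Hey1 and Hey2 take part in arterial fate, whereas Jag1, Notch3 and Heyl are known from the contact between endothelium and the smooth muscle cells and pericytes around it. Lung tissue holds all of these cells, and the arrays read whole tissue, so fewer cells of a type and less RNA per cell cannot be told apart in any value below.

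RBPJ recognises a short core, TGGGAA, in the promoters of its targets. Promoters of 8 of the 10 genes were matched in RefSeq (assembly GRCr8), with 9 windows of 250 bases before and 50 bases after the annotated start; Dll4 and Hey1 were not matched. The core was searched on both strands of each window, and the longer form GTGGGAA, which contains it, was counted as well. The core was found in 4 of the 9 windows, and in 25.7% of all 33469 promoters of that length, while the longer form was found in 2 of the 9 and in 6.29% of all. The 250 bases before the start are shown for the targets Hes1, Hey2 and Heyl and for the receptor Notch4, as 3 targets that did not move alike in the arrays and the one receptor of the set that passed for HTV. Capitals mark TGGGAA or its reverse complement TTCCCA; each sequence is written 5′ to 3′ on the strand of its gene.
Hes1, chr11:84213046-84213295, minus strand: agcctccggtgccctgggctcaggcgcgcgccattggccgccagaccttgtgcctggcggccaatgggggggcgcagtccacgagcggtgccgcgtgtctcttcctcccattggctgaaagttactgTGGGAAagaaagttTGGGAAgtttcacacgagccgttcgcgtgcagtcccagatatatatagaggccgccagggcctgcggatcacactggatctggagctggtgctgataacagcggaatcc
Hey2, chr1:28640850-28641099, plus strand: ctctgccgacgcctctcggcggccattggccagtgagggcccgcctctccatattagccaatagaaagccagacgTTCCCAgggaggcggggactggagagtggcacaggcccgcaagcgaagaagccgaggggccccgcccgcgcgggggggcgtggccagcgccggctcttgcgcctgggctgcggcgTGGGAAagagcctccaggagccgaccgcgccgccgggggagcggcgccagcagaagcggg
Heyl, chr5:140793021-140793270, plus strand: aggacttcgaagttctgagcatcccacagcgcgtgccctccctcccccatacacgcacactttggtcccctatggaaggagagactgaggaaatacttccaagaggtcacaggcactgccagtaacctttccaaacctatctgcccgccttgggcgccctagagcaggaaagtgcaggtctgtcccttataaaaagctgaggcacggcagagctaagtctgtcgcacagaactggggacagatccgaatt
Notch4, chr20:4189073-4189322, minus strand: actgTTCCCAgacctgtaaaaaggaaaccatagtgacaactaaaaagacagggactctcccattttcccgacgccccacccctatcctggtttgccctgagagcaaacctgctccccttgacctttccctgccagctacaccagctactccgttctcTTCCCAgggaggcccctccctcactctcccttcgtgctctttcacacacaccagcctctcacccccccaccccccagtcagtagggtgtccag

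In Hes1 the 2 cores begin 123 and 109 bases before the start and point the same way, and the first belongs to the longer form. Hey2 has 2 cores as well, at 175 bases on the opposite strand and at 60 bases in the longer form, and Notch4 has 2 on the opposite strand, at 246 and 93 bases. No core was found in the window of Heyl. A match describes letters only.

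Values are linear intensities that were scaled on each array, and a difference between groups is one of log2(intensity + 16), printed ± its standard error, which understates changes of dim probe sets. A difference passed the test when its p-value from limma, adjusted over all 18625 tested probe sets, was below 0.05. Intensities of different probe sets were not set against each other, since probes differ in brightness. The arrays correlated at r = 0.883 to 0.980, with medians of 58.5 to 68.1. The lung markers Sftpc (surfactant protein C, mean intensity 3801), Ager (2348) and Scgb1a1 (3835) and the endothelial markers Cldn5 (2336) and Tek (1773) were bright, so the labelled tissue has its defining genes. One library stood apart. SS control 3 had the lowest mean correlation with its own group, 0.950 against 0.964 to 0.975 in the other 11 arrays, and at 35 probe sets that split the strains by more than 1.5 log2 units it lay past the midpoint towards BN at 13, while none of the other 11 arrays did so at any of 20 to 24 such probe sets. It was kept as labelled, and results that lean on it are also given without it.

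HTV moved the Hey and Heyl targets in opposite directions. Averaged over the strains, Hey1 and Hey2 fell together with the ligand Dll4, whereas Heyl and the receptor Notch4 rose. Taking each gene by its brightest tested probe set, 2 of the 10 genes were higher and 3 lower, against 6.83% and 8.66% of all 10554 tested genes. By probe sets, 4 of 14 were higher and 3 lower, where 7.02% and 8.71% of the 18625 tested were. One of the 4 is the second Heyl probe set, which was tested only through its HTV values, so the 4 are not read against that share. Jag1, Jag2, Notch1, Notch3 and Hes1 did not pass the test.

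**Figure D1:**
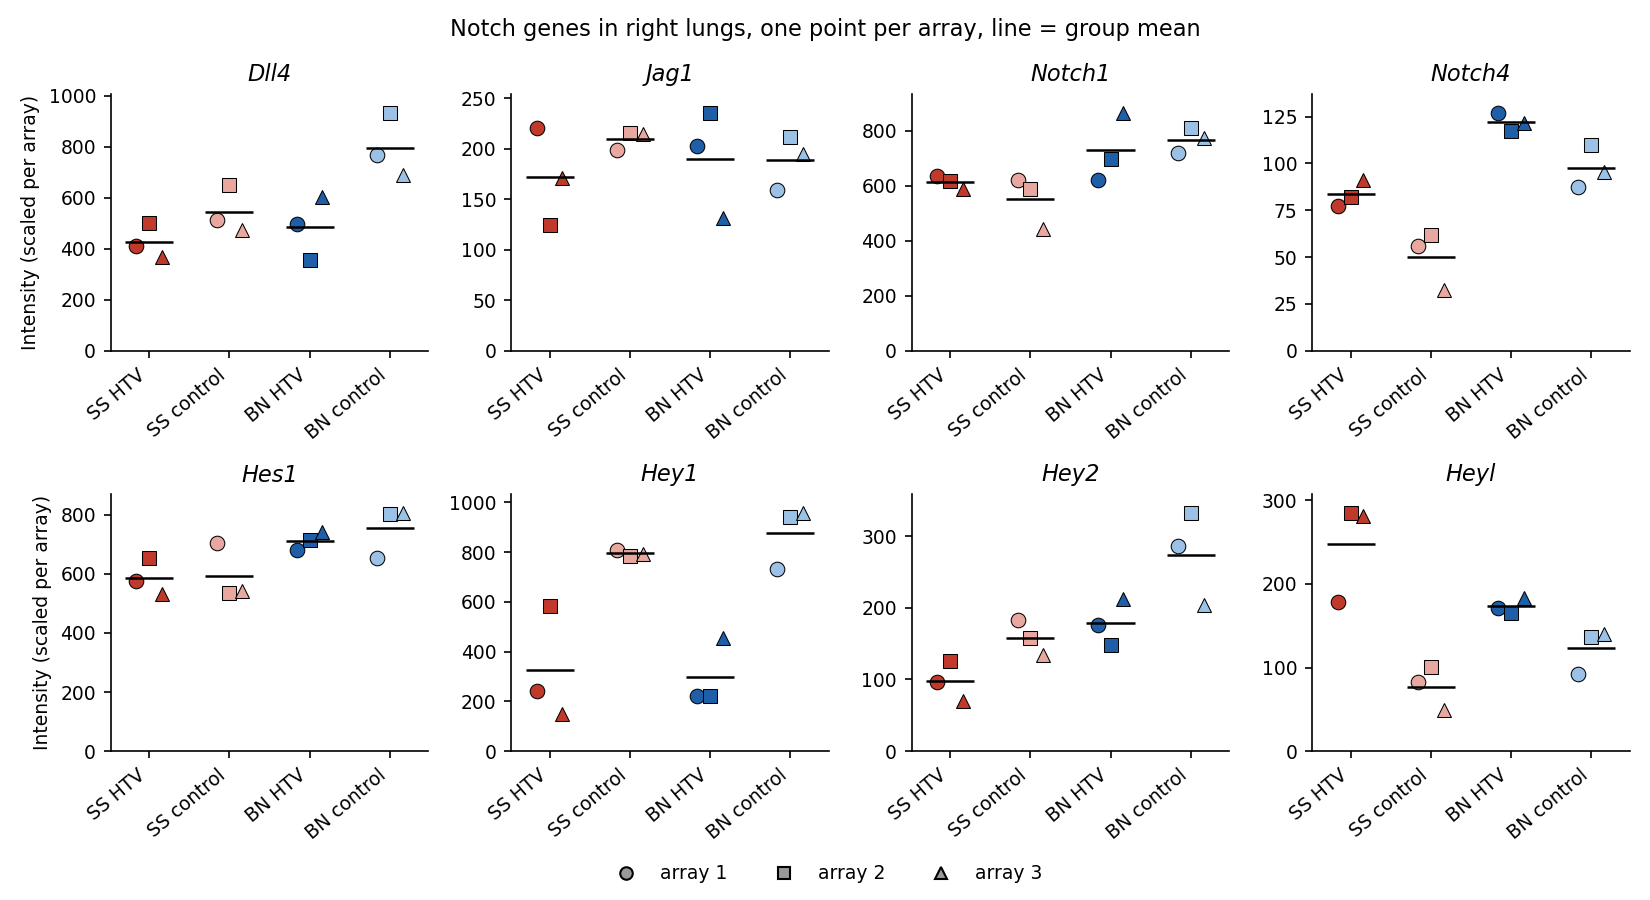
Intensity of the brightest probe set of 8 of the genes (vertical axes, linear and starting at 0) in SS HTV, SS control, BN HTV and BN control lungs; each point is 1 array, its shape gives the array's number, and the line is the mean of 3. Hey1 lies between 151.1 and 584.3 in HTV lungs and between 732.4 and 957.3 in control lungs, while Heyl lies higher in HTV lungs of both strains.

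Among the ligands, Dll4, which on vascular sprouts restrains neighbouring endothelial cells, has 2 tested probe sets. The brighter one read 411.1, 500.7 and 368.7 in SS HTV lungs and 510.8, 650.0 and 471.5 in SS control lungs. In BN lungs it read 496.7, 354.5 and 600.5 with HTV and 766.0, 933.2 and 688.6 in controls. The BN groups did not overlap, with every HTV lung below every control, whereas in SS lungs the second HTV array lay above the lowest control. Averaged over strains the difference was -0.53 ± 0.13 (adjusted p = 0.0153), and in BN lungs alone -0.72 ± 0.19 (adjusted p = 0.0383). In SS lungs it was -0.34 ± 0.19 and did not pass (adjusted p = 0.277). The BN call was lost without BN HTV 1, BN HTV 2, any BN control or SS HTV 1 (-0.52 to -0.82, adjusted p = 0.0527 to 0.147). The second Dll4 probe set had a difference of -0.47 ± 0.15 over both strains, just outside the threshold (adjusted p = 0.0558), with -0.14 ± 0.22 in SS lungs and -0.79 ± 0.22 in BN lungs (adjusted p = 0.711 and 0.0504). Its averaged difference passed without SS HTV 2, SS control 3, BN HTV 3 or BN control 3 (-0.53 to -0.56, adjusted p = 0.0232 to 0.0463).

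Jag1, the ligand that endothelium presents to vascular smooth muscle, read 220.5, 124.2 and 170.7 in SS HTV lungs and 198.2, 215.7 and 214.8 in SS control lungs. It read 202.1, 235.7 and 131.1 in BN HTV lungs and 159.4, 211.3 and 194.6 in BN control lungs. HTV arrays lay both above and below the controls in each strain. The averaged difference was -0.16, with a 95% confidence interval of -0.47 to 0.16 (adjusted p = 0.506). Jag2, a further ligand of the same family, was dim at 35.6 to 72.2 over the HTV arrays and 42.6 to 71.6 over the control arrays, with an averaged difference of -0.08 and an interval of -0.35 to 0.19 (adjusted p = 0.717).

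Among the receptors, only Notch4 passed the test for HTV. Notch4, a receptor known mainly from endothelium, read 77.1, 82.1 and 91.3 in SS HTV lungs and 55.7, 61.8 and 32.6 in SS control lungs with its brighter probe set. It read 127.2, 117.2 and 121.6 in BN HTV lungs and 87.2, 109.9 and 95.5 in BN control lungs. Each HTV array lay above each control of its strain. The mean intensity in HTV lungs was 1.67 times that of controls in SS and 1.25 times in BN. The averaged difference was 0.45 ± 0.12 (adjusted p = 0.0186), with 0.62 ± 0.17 in SS lungs (adjusted p = 0.0372) and 0.29 ± 0.17 in BN lungs (adjusted p = 0.371). The second tested Notch4 probe set rose by 0.40 ± 0.13 over both strains (adjusted p = 0.0467), with 0.52 in SS and 0.27 in BN lungs, neither of which passed (adjusted p = 0.0887 and 0.43). SS control 3 had the lowest value of the brighter probe set. Without it the averaged rise was 0.35 (adjusted p = 0.0194) and the SS difference 0.41, which no longer passed (adjusted p = 0.0952). The SS call was also lost without any 1 of the SS HTV arrays or BN control 3 (0.56 to 0.66, adjusted p = 0.0523 to 0.122), and the averaged rise of the second probe set without SS HTV 1 or 2, SS control 2 or 3, BN HTV 1 or 2, or BN control 1 or 3 (0.33 to 0.40, adjusted p = 0.0613 to 0.114).

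Notch1, the broadly expressed receptor, read 634.6, 616.1 and 590.1 in SS HTV lungs and 622.8, 589.4 and 443.2 in SS control lungs with its brighter probe set. In BN lungs it read 622.4, 697.8 and 867.1 with HTV and 719.1, 810.6 and 776.2 in controls. The groups overlapped in both strains. The averaged difference was 0.04 with an interval of -0.17 to 0.25 (adjusted p = 0.828), and that of the second probe set was 0.24 ± 0.10 (adjusted p = 0.136), or 0.14 without SS control 3 (adjusted p = 0.202). Notch3, the receptor of vascular smooth muscle and pericytes, lay at 106.5 to 131.3 in SS HTV lungs, 63.7 to 114.8 in SS control lungs, 90.5 to 109.8 in BN HTV lungs and 90.4 to 96.0 in BN control lungs. Its averaged difference was 0.18, with an interval of -0.08 to 0.43 (adjusted p = 0.338), and was 0.08 without SS control 3 (adjusted p = 0.616).

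The targets held the largest differences of the set. Hey1, a repressor active in arterial endothelium, read 242.8, 584.3 and 151.1 in SS HTV lungs and 809.3, 784.3 and 794.0 in SS control lungs. It read 219.9, 222.0 and 456.1 in BN HTV lungs and 732.4, 940.6 and 957.3 in BN control lungs. SS controls were close together and SS HTV lungs spread, whereas BN control and BN HTV lungs were spread about alike in intensity. No HTV lung reached the lowest control of its strain. Means were 326 ± 228 in SS HTV and 796 ± 12.6 in SS control lungs, and 299 ± 136 in BN HTV and 877 ± 125 in BN control lungs (SD, n = 3 each). The HTV mean was 0.410 times the control mean in SS and 0.341 times in BN. The averaged difference was -1.51 ± 0.26 (adjusted p = 0.00139), with -1.46 ± 0.36 in SS lungs and -1.57 ± 0.36 in BN lungs (adjusted p = 0.0272 and 0.0220). Both single-strain calls were lost when certain single arrays were left out. In SS lungs it was lost without any 1 of the 3 controls, without HTV 1 or without HTV 3 (-1.04 to -1.47, adjusted p = 0.0564 to 0.102), and in BN lungs without HTV 1, HTV 2, control 2 or control 3 (-1.40 to -1.52, adjusted p = 0.0748 to 0.0974). Without any 1 SS control the SS difference itself stayed at -1.44 to -1.47. In these same fits, calls over all tested probe sets fell from 1502 to between 630 and 1352 in SS lungs. For BN lungs they fell from 1084 to between 530 and 615.

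Hey2, the close relative of Hey1, read 96.7, 126.0 and 69.8 in SS HTV lungs and 182.5, 158.4 and 134.5 in SS control lungs. It read 175.9, 147.5 and 211.9 in BN HTV lungs and 286.6, 332.0 and 204.0 in BN control lungs. The SS groups did not overlap, and in BN lungs the third HTV array lay above the lowest control. The fall averaged -0.60 ± 0.15 (adjusted p = 0.0135). Within a strain the differences were of like size, -0.64 ± 0.21 in SS and -0.57 ± 0.21 in BN lungs, and neither passed (adjusted p = 0.0758 and 0.143). Without SS HTV 2 the SS difference was -0.82 and passed (adjusted p = 0.0409).

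Heyl, the third member of the family, went the other way. Its brighter probe set read 178.1, 284.7 and 280.8 in SS HTV lungs and 82.7, 100.4 and 48.9 in SS control lungs, and 171.0, 165.1 and 182.9 in BN HTV lungs and 92.5, 136.3 and 139.9 in BN control lungs. All HTV lungs lay above all controls of their strain, and the HTV mean was 3.21 times the control mean in SS and 1.41 times in BN. The rise averaged 0.99 ± 0.16 (adjusted p = 0.000957), with 1.51 ± 0.22 in SS lungs (adjusted p = 0.00141) and 0.46 ± 0.22 in BN lungs (adjusted p = 0.272). The second Heyl probe set read 76.9, 65.7 and 71.4 in SS HTV lungs and 28.2, 10.4 and 19.4 in SS control lungs, and 106.6, 88.9 and 88.1 in BN HTV lungs and 26.1, 37.6 and 15.2 in BN control lungs. It rose by 1.34 ± 0.21 in SS and by 1.42 ± 0.21 in BN lungs (adjusted p = 0.0023 and 0.0017). All its control values lie under 42.2, the mean intensity needed for testing, so it was tested only because its HTV values are higher. The 2 probe sets thus disagree on the size of the BN rise, and without SS control 3 the brighter one rose by 1.27 in SS lungs (adjusted p = 0.00385).

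Hes1, the most general Notch target, did not follow the Hey genes. It read 575.1, 651.4 and 531.6 in SS HTV lungs and 704.0, 535.2 and 539.8 in SS control lungs, and 680.4, 712.9 and 742.5 in BN HTV lungs and 653.7, 800.4 and 804.9 in BN control lungs. The groups overlapped in both strains. The averaged difference was -0.04, and its interval of -0.23 to 0.15 is narrow beside the differences of Hey1, Hey2 and Heyl (adjusted p = 0.791).

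**Figure D2:**
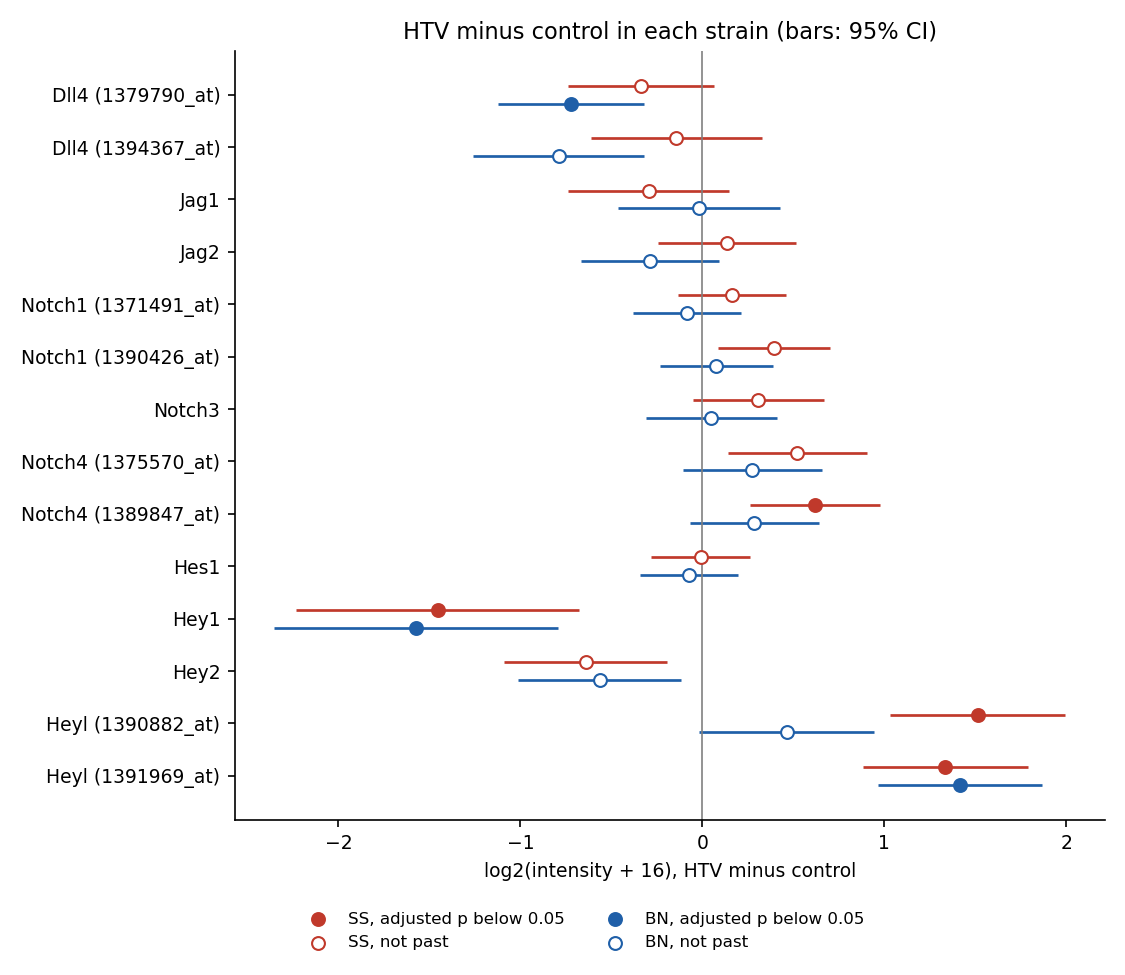
HTV minus control on the log2(intensity + 16) scale (horizontal axis) for each of the 14 tested probe sets, in SS and in BN lungs; points are fitted differences, bars are 95% confidence intervals, and filled points have an adjusted p below 0.05. Hey1 lies far below 0 in both strains at -1.46 and -1.57, and the brighter Heyl probe set lies at 1.51 in SS and 0.46 in BN lungs.

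Counted within a strain, 2 genes (Heyl and Notch4) were higher and 1 (Hey1) lower in SS HTV lungs, where 3.91% of all tested probe sets were higher and 4.16% lower. By probe sets these counts were 3 and 1 of 14, the second Heyl probe set being one of the 3. In BN HTV lungs no gene was higher by its brightest probe set and 2 (Dll4 and Hey1) were lower, where 2.96% of all tested probe sets were higher and 2.86% lower. By probe sets 2 of 14 were lower and 1 higher, and that 1 is the second Heyl probe set, so it is not read against the share. Centring each array on its median shifted the split of all calls in SS lungs, with 564 probe sets higher and 994 lower in place of 728 and 774. Both strain comparisons enter the averaged one, so these counts are not independent of it.

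Whether the strains responded differently was tested as the difference of their HTV changes, SS minus BN. None of the 14 probe sets passed, nor did any of the 18625 (0%), and limma gave an unadjusted p below 0.05 at 1551 probe sets in all and at 1 of the 14. That one was the brighter Heyl probe set, at 1.05 ± 0.32 (adjusted p = 0.528), with its interval at 0.37 to 1.73. For the second Heyl probe set the difference was -0.08 with an interval of -0.72 to 0.56. Hey1 had 0.12 (-0.99 to 1.22), Hey2 -0.08 (-0.71 to 0.56), Notch4 0.33 (-0.17 to 0.84) and Dll4 0.38 (-0.18 to 0.95) with their brightest probe sets. These intervals are wide enough to hold strain differences as large as several of the changes themselves.

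Hey1 and Hey2 varied together among the HTV lungs of each strain. Measured from the mean of the strain's own controls on the log2 scale, Hey1 stood at -1.65, -0.44 and -2.28 in SS HTV lungs 1, 2 and 3 and at -1.91, -1.90 and -0.91 in BN HTV lungs 1, 2 and 3. Hey2 stood at -0.62, -0.29 and -1.01 in the SS lungs and at -0.57, -0.80 and -0.32 in the BN lungs. The smallest departures of both genes were thus in SS HTV 2 and BN HTV 3. The brighter Dll4 probe set stood at -0.38, -0.10 and -0.53 in SS and at -0.65, -1.12 and -0.39 in BN lungs, again smallest in these 2 arrays. For Heyl the probe sets differed. The brighter one stood at 1.10, 1.73 and 1.71 in SS and at 0.45, 0.40 and 0.54 in BN lungs, and was largest in these 2 arrays. The second one stood at 1.43, 1.24 and 1.34 in SS and at 1.57, 1.35 and 1.33 in BN lungs, smallest in these 2 arrays by a narrow margin. Jag1, which did not pass the test, had its largest departures in these 2 arrays. It stood at 0.07, -0.69 and -0.27 in SS and at 0.10, 0.31 and -0.47 in BN lungs.

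**Figure D3:**
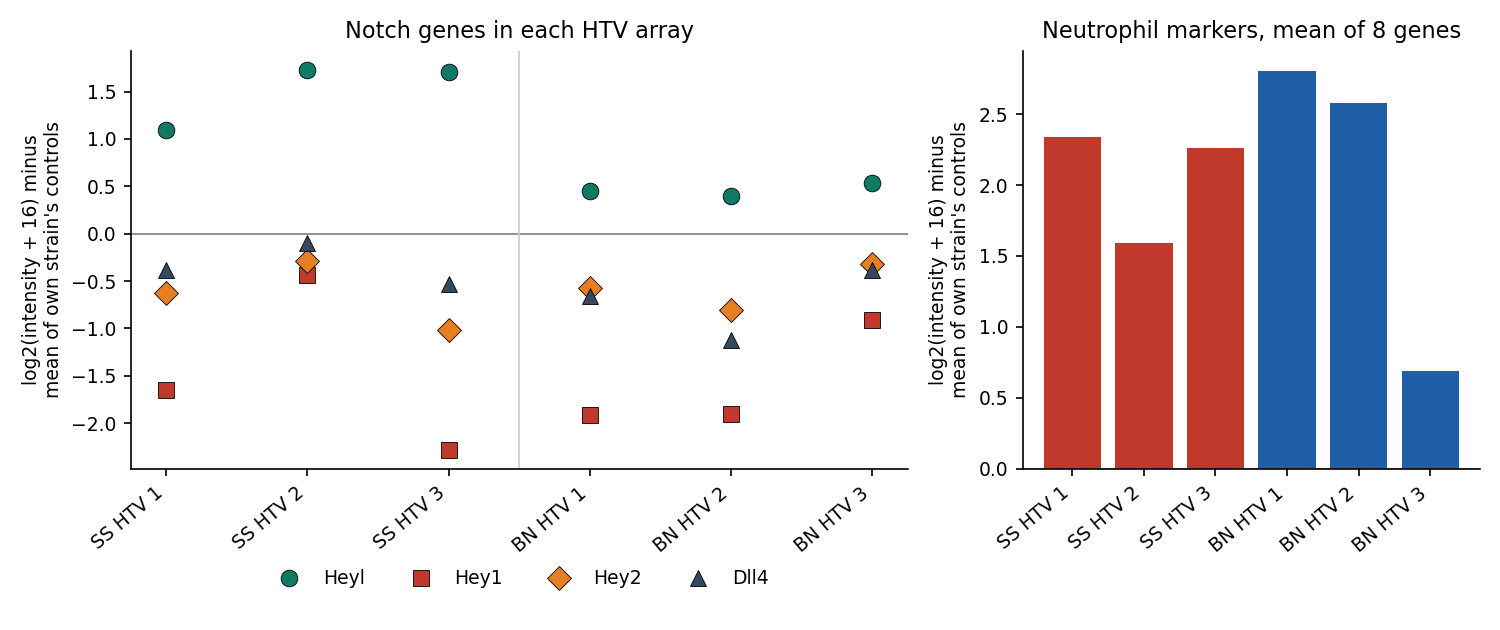
Difference of each HTV array from the mean of its own strain's controls (vertical axis, log2 scale) for Hey1, Hey2, Dll4, Heyl and the mean of 8 neutrophil markers; each point in the left panel is 1 HTV array of SS or BN lungs, and each bar in the right panel is the marker mean in 1 array. SS HTV 2 and BN HTV 3 lie closest to 0 for Hey1, Hey2 and Dll4, and lowest within their strain for the neutrophil markers at 1.59 and 0.69.

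Markers of neutrophils moved with this pattern. The mean of 8 neutrophil genes, among them the calgranulins S100a8 and S100a9, the decoy receptor Il1r2 and the protease Mmp8, stood at 2.34, 1.59 and 2.26 above controls in SS HTV lungs and at 2.81, 2.58 and 0.69 in BN HTV lungs, lowest in the same 2 arrays. Their summed intensity was 3135 to 12311 over the HTV lungs and 1175 to 2505 over the control lungs, and 7 of 8 rose with HTV averaged over strains. In control lungs the protease Mmp9 was dimmest, at 1.9 to 19.3, all under the mean intensity needed for testing. Mmp9 was thus tested only because its HTV values are higher. It is among the 7 that rose, with the largest rise (3.20), and it enters the mean of the 8 genes. Control values of Cxcr2, Il1r2 and Mmp8 lay on both sides of that intensity. The mean of 6 macrophage genes was also lowest within its strain in SS HTV 2 and BN HTV 3, at 0.02 and -0.11. Its other HTV values were 0.11 and 0.16 in SS and 0.06 and 0.23 in BN lungs, and BN controls spanned -0.28 to 0.25. The part of neutrophils and macrophages in the Notch results was not tested. Without SS HTV 2 and BN HTV 3 together, a choice made after these values were seen, Dll4, Hey1, Hey2 and Heyl passed as before and Notch4 was at 0.46 with an adjusted p of 0.0523 (0.00882 to 0.0523 over all alternatives tried).

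Marker genes of endothelium and smooth muscle, in which these genes are best known, were measured on the same arrays as RNA of the whole tissue. In all list counts for HTV averaged over strains, here and below, the share among all tested genes is the 6.83% higher and 8.66% lower given above. The summed intensity of 16 tested endothelial genes was 18190 to 20322 in SS HTV and 18531 to 19788 in SS control lungs, and 21706 to 22471 in BN HTV and 22822 to 23314 in BN control lungs. This sum overlapped in SS lungs, and in BN lungs all HTV sums were slightly lower. By the mean log2 value of the genes, measured from the strain's own controls, the BN groups overlapped too. BN HTV 1 and 3 stood at -0.017 and -0.016, above BN control 1 at -0.028. Averaged over strains 3 of the 16 rose and 2 fell, with a median difference of -0.03 beside -0.02 over all tested genes. Flt1, a receptor for vascular endothelial growth factor, rose by 1.0 ± 0.12 (adjusted p = 0.000147), and the junction genes Esam and Cldn5 rose by 0.35 and 0.25. Calcrl, the receptor of adrenomedullin, fell by 0.59 ± 0.13 (adjusted p = 0.00982), and Egfl7, a secreted endothelial protein, fell by 0.55 ± 0.11 (adjusted p = 0.00487). Averaged over strains, Hey1 differed between HTV and control lungs by more than any of the 16 endothelial genes did. The part of endothelial cells in the fall of Hey1 was not tested.

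For smooth muscle and pericytes the summed intensity of 11 genes was 4594 to 5127 in SS HTV and 3312 to 4275 in SS control lungs, and 4494 to 5043 in BN HTV and 3899 to 4327 in BN control lungs. By this sum all HTV lungs lay above the controls of their strain, and SS control 3 was the lowest array of all. By the mean log2 value of the genes, measured from the strain's own controls, the BN groups overlapped. BN HTV 2 and 3 stood at 0.09 and 0.04, below BN control 3 at 0.10. Of the 11 genes 2 rose and none fell, with a median difference of 0.14. Mcam, an adhesion molecule of vessel walls, rose by 0.56 ± 0.07 (adjusted p = 0.000182) and Kcnj8, a potassium channel of pericytes, by 0.46 ± 0.12 (adjusted p = 0.0192). Heyl lies beyond all 11 in its averaged difference. In BN lungs alone its brighter probe set rose by 0.46, less than Mcam at 0.49, and its second probe set by 1.42. The part of smooth muscle cells and pericytes in the rise of Heyl was not tested.

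In control lungs, SS had lower levels than BN of Notch1, Notch4 and Hey2. Of the 10 genes 3 were lower and none higher by their brightest probe set, and of the 14 probe sets 5 were lower, where 5.84% of all tested probe sets were higher and 6.41% lower. The array values are those given above. Notch4 differed by -0.81 ± 0.17 and -0.65 ± 0.18 with its 2 probe sets (adjusted p = 0.00887 and 0.0325), all SS control values lying below all BN control values. Notch1 differed by -0.48 ± 0.14 and -0.67 ± 0.14 (adjusted p = 0.0385 and 0.0108), again without overlap. The second Notch1 probe set read 427.4, 448.5 and 288.7 in SS control lungs and 623.9, 670.3 and 559.6 in BN control lungs. Hey2 differed by -0.72 ± 0.21 (adjusted p = 0.0395), with an SS mean of 0.578 times the BN mean.

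The other genes did not pass between control lungs. Dll4 had -0.54 ± 0.19 and -0.69 ± 0.22 (adjusted p = 0.0753 and 0.056), with no overlap between strains in either probe set. Hes1 had -0.34 ± 0.13 (adjusted p = 0.0929) and Heyl -0.60 ± 0.22 and -0.26 ± 0.21 (adjusted p = 0.0975 and 0.442), the first of which was -0.35 without SS control 3 (adjusted p = 0.278). Hey1, with its large response to HTV, had -0.13 with an interval of -0.91 to 0.65 (adjusted p = 0.846), and Jag1 0.15, Jag2 -0.07 and Notch3 -0.05.

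Single arrays and cell type markers moved with this comparison, and a measure of RNA quality differed in mean between the strains over all arrays. SS control 3 had the lowest Notch1, Notch3 and Notch4 values of its group with the brightest probe sets, and without it the brighter Notch1 probe set was at -0.33 (adjusted p = 0.0973), the second at -0.48 (adjusted p = 0.0141), Notch4 at -0.60 and -0.66 (adjusted p = 0.0144 and 0.0536) and Hey2 at -0.62 (adjusted p = 0.0982). Without BN control 2 none of the 10 genes passed by its brightest probe set (Notch4 -0.73, adjusted p = 0.0501). Calls over all tested probe sets then fell too, from 2281 to 731. Over all single arrays left out, the brighter Notch1 probe set also lost its call without SS HTV 2, SS control 2 and any BN control (-0.44 to -0.53, adjusted p = 0.0508 to 0.143), Hey2 without SS HTV 1, SS control 2, BN HTV 1 and BN controls 1 and 2 (-0.57 to -0.72, adjusted p = 0.0501 to 0.176), the second Notch4 probe set without SS control 2 and BN controls 1 and 2 (-0.51 to -0.64, adjusted p = 0.0654 to 0.152), and the second Notch1 probe set without BN control 2 (-0.61, adjusted p = 0.0582). The log2 ratio of 5-prime over 3-prime actin signal, which drops as RNA degrades, was -0.70 ± 0.43 in SS arrays and -1.17 ± 0.23 in BN arrays (SD, n = 6 each). These means include the HTV arrays. In controls alone it was -0.51, -0.23 and -1.40 in SS lungs 1, 2 and 3. It was -0.88, -1.46 and -0.95 in BN control lungs, so the strains overlapped. Of all 10554 tested genes, 615 were higher and 539 lower in SS control lungs by their brightest probe set. Of the endothelial genes 1 of 16 was higher and 3 lower in SS control lungs, with a median difference of -0.25, beside a median of -0.01 over all tested genes. Of the T and NK cell genes 4 of 10 were higher in SS control lungs and none lower, with a median difference of 0.45. The part of all these in the result was not tested. With each array centred on its median the split of all calls went to 1747 higher and 824 lower in place of 1088 and 1193, and by its brightest probe set Notch4 alone of the 10 genes passed.

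In HTV lungs Hey2 alone passed the test between the strains. It differed by -0.79 ± 0.21 (adjusted p = 0.0324) with every SS HTV value below every BN HTV value, making 1 gene of 10 and 1 probe set of 14 lower and none higher, where 3.82% of all tested probe sets were higher and 4.42% lower. Notch4 had -0.47 ± 0.17 (adjusted p = 0.0985) and the second Notch1 probe set -0.35 ± 0.14 (adjusted p = 0.155), both without overlap. Without SS control 3, which is in neither group but enters the shared estimate of spread, they had the same differences and adjusted p-values of 0.0229 and 0.0299 (0.0229 to 0.322 and 0.0299 to 0.428 over all alternatives tried). The Hey2 call was lost without SS HTV 1, SS HTV 3, BN HTV 1 or BN HTV 3 (-0.61 to -0.80, adjusted p = 0.0647 to 0.137). Hey1 did not differ beyond its spread, at -0.01 with an interval of -0.79 to 0.77, and Jag2, at 0.36 ± 0.18 (adjusted p = 0.241), was the ligand with no overlap between strains. The second Notch4 probe set (-0.40), Hes1 (-0.28) and the second Heyl probe set (-0.34) also had no overlap. None of them passed (adjusted p = 0.196, 0.203 and 0.366). For Jag2 the lowest SS HTV value was 55.6 and the highest BN HTV value 55.2. How many of all tested probe sets had no overlap was not counted. Groups without overlap are therefore not read as a result, in this or any other comparison.

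**Figure D4:**
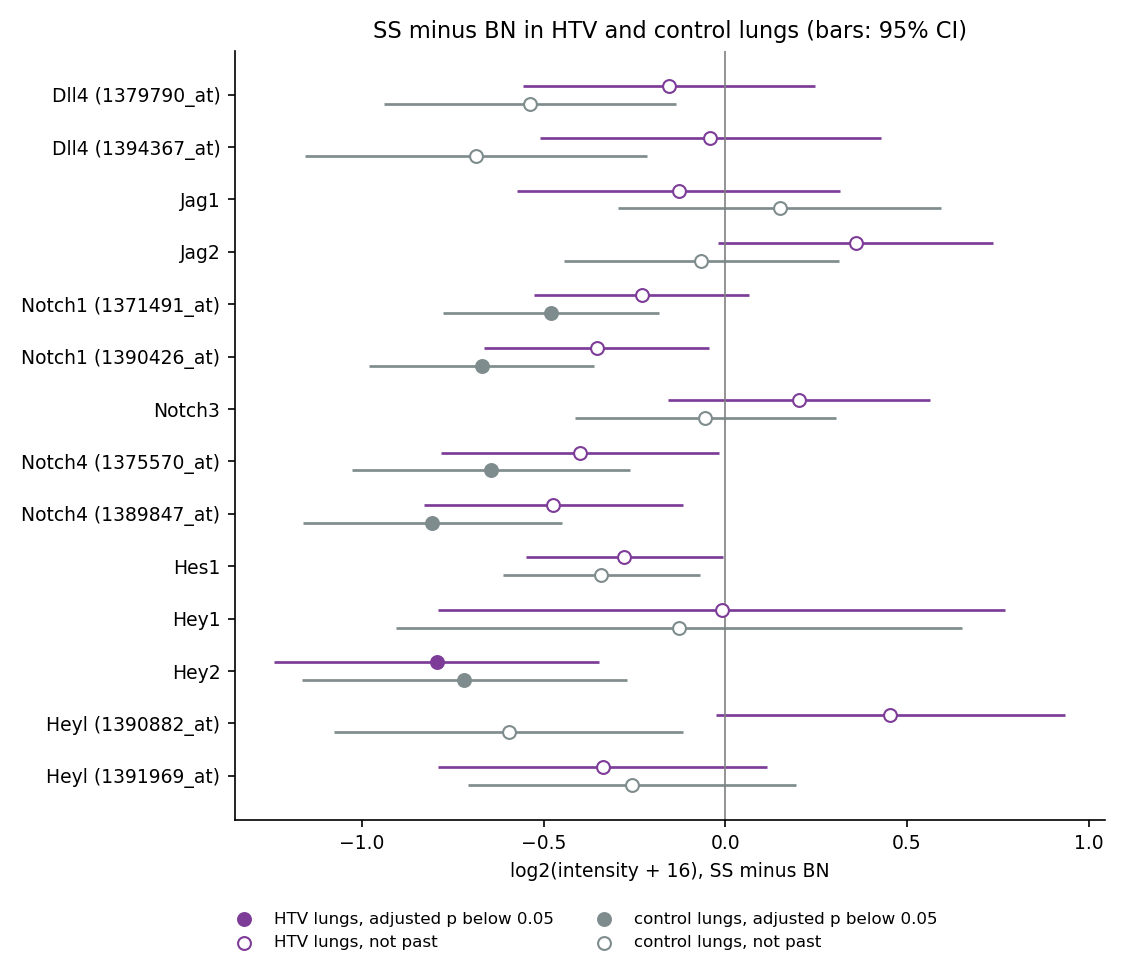
SS minus BN on the log2(intensity + 16) scale (horizontal axis) for the 14 tested probe sets in HTV lungs and in control lungs; points are fitted differences, bars are 95% confidence intervals, and filled points have an adjusted p below 0.05. Both Notch1 and both Notch4 probe sets pass in control lungs alone, and Hey2 passes in both, at -0.79 in HTV and -0.72 in control lungs.

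Other genes of the pathway were taken by list and set beside the same shares of all tested genes, 6.83% higher and 8.66% lower. Among 6 further receptors and ligands, 2 were bright enough to be tested, and Dll1, a ligand of the Dll4 family, rose by 1.0 ± 0.16 over both strains (adjusted p = 0.00112), by 0.98 in SS and by 1.02 in BN lungs (adjusted p = 0.0214 and 0.0204). It lay at 69.3 to 103.3 in HTV lungs and 16.1 to 46.7 in control lungs, where its level is near or under the 42.2 needed for testing, so its HTV values carried it into the test. The other tested one, Dlk1, had 0.26 (adjusted p = 0.384). Of 11 tested genes that cut receptors or attach sugars to them, 2 fell and none rose, with a median of -0.01. Both that fell are Fringe enzymes, which alter how receptors respond to different ligands: Mfng fell by 0.50 ± 0.08 (adjusted p = 0.00132) and Lfng by 0.33 ± 0.09 (adjusted p = 0.0294). Their relative Rfng had 0.05 (adjusted p = 0.696), and the sheddases Adam10 and Adam17 had -0.25 and -0.20 and did not pass.

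Of 15 tested genes of the nuclear complex and its corepressors, 1 rose and 2 fell, with a median of -0.05. RBPJ itself, the DNA-binding partner of all receptors (gene Rbpj), had -0.05 ± 0.07 (adjusted p = 0.659). The coactivator Maml1 rose by 0.29 ± 0.09 (adjusted p = 0.0347), while the acetyltransferase Kat2b fell by 0.31 ± 0.07 (adjusted p = 0.00724) and the corepressor Tle1 by 0.52 ± 0.12 (adjusted p = 0.0104). Among 10 tested genes of ligand endocytosis, receptor turnover and inhibition, Numb, an inhibitor of receptor signalling, fell by 0.28 ± 0.07 (adjusted p = 0.0201) and none rose. Among 9 tested genes of a list of other Hes genes and genes linked to Notch, not all of them arterial, 1 passed. Snai1, a repressor linked to changes of cell shape, fell by 0.57 ± 0.09 (adjusted p = 0.00125). The arterial gap junction gene Gja5 had -0.32 ± 0.12 and Hes5, Hes6 and Gja4 lay within 0.05 of 0, none of them passing (adjusted p = 0.101 for Gja5).

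**Figure D5:**
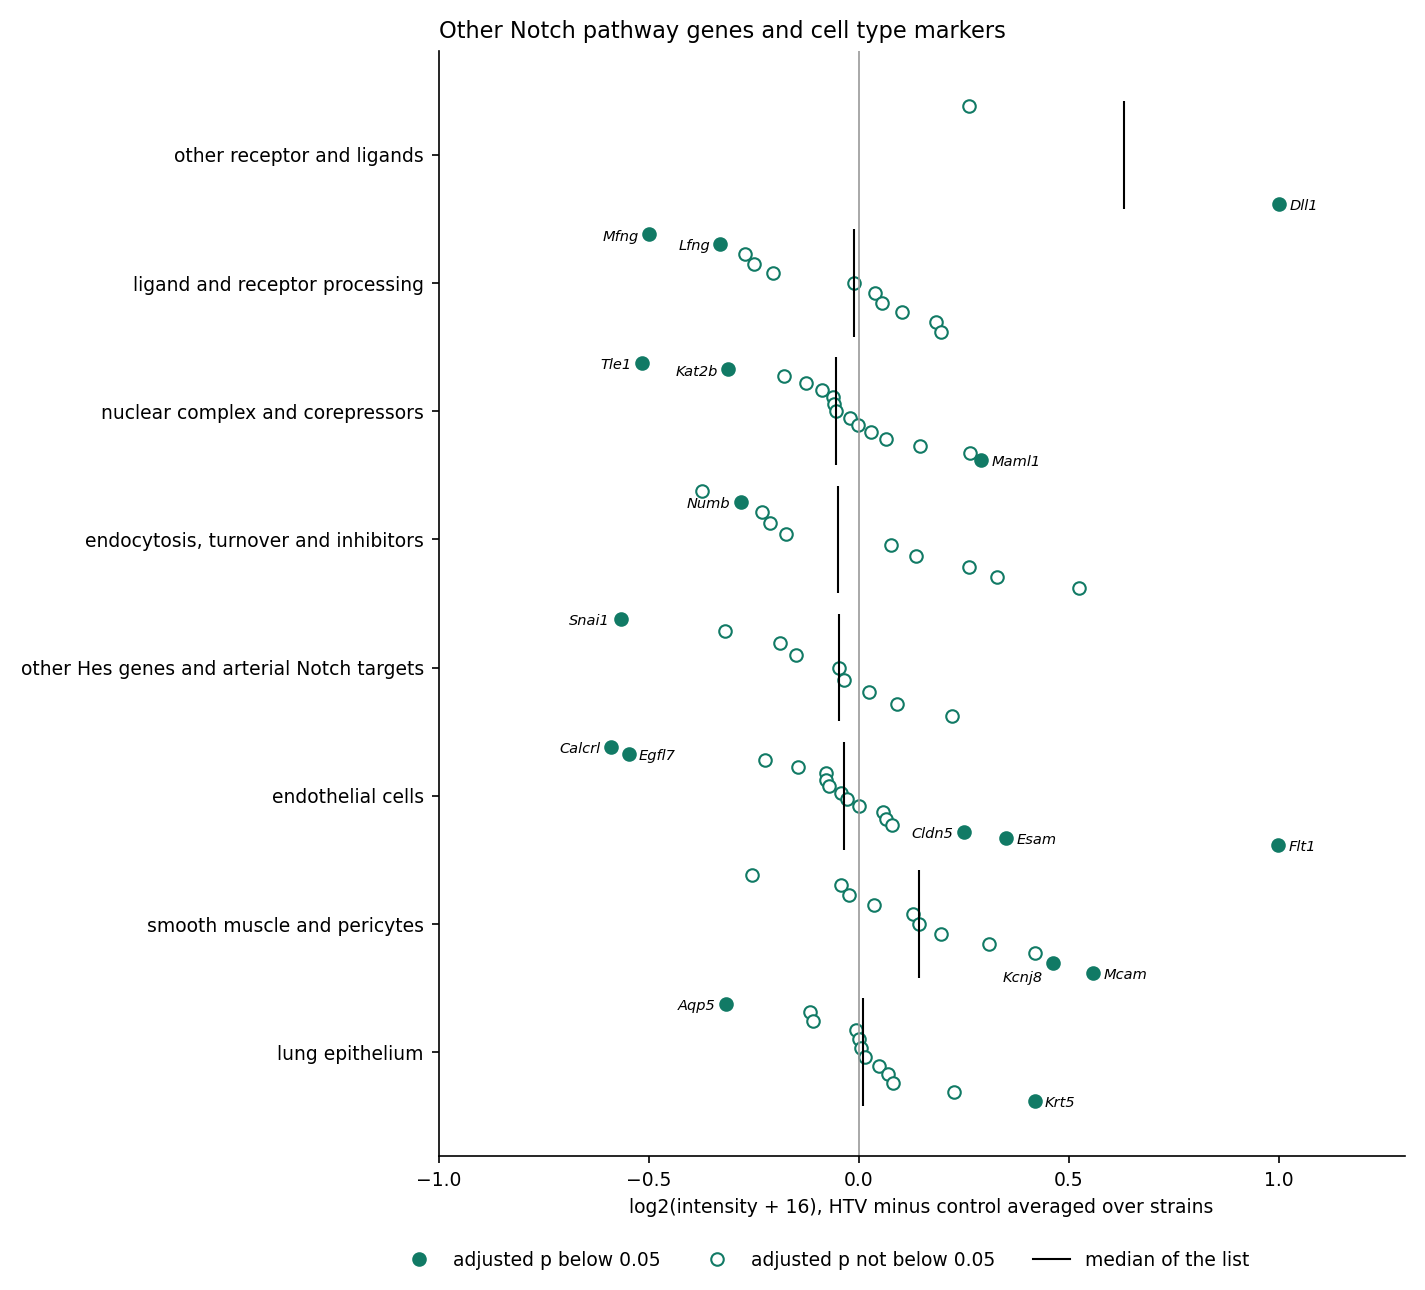
HTV minus control averaged over strains (horizontal axis, log2(intensity + 16) scale) for the tested genes of 5 lists of other Notch pathway genes and of 3 lists of cell type markers; each point is 1 gene, filled where its adjusted p is below 0.05, and the vertical line is the median of the list. Most genes lie near 0, with Dll1 and Flt1 at 1.0 to the right and Mfng at -0.50, Tle1 at -0.52 and Snai1 at -0.57 to the left.

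Markers of other cell types were counted in the same way. Of 12 genes of lung epithelium 1 rose (Krt5, by 0.42) and 1 fell (Aqp5, by 0.32), and of 6 tested macrophage genes none passed. Of 10 tested T and NK cell genes 4 fell and none rose: the killer cell genes Gzma (by 0.68), Klrb1a (by 0.81), Prf1 (by 0.84) and Nkg7 (by 0.50).

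The genes whose pattern over the 12 arrays was most like each of the changed genes were found by the root mean square difference of mean-centred log2 values. For Hey1 the nearest were LOC100912167 (0.340), Klf2, a transcription factor of endothelium under flow (0.369), Phf19 (0.421), Btbd3 (0.447) and the chemokine receptor Cxcr4 (0.451). For Hey2 they were Arrb1 (0.217), Sox2 (0.230) and Fmo1 (0.251), and for Dll4 Zscan26 (0.153), Meis1 (0.174) and Tcf7 (0.180). For Notch4 they were B4galnt1 (0.146), Akap17a (0.154) and Ggact (0.156), and for Heyl Nr4a2 (0.267), Fam222a (0.268) and Tbc1d8 (0.273). The 10 genes themselves were left out of the search, which used the same arrays as the tests above.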

How the data were processed

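Right lungs of 12 rats were measured, 6 µg of total RNA per array, with strain and condition taken from the labels. The deposited values are linear intensities per probe set, made with MAS5 per the submitters' processing notes, whose version and settings are not stated there. Trimmed means of 149.6 to 150.0 on all arrays showed that the values were already scaled, and no further normalization was applied. How far a value lies above background is unknown, and precision is limited by having 3 arrays per group.

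Intensities were taken as log2(intensity + 16). After removal of 57 control probe sets, probe sets were kept if their mean reached the 40th percentile (42.2). A single gene is annotated for 20826 probe sets, more than one for 436 and no gene for 9780. The 4 group means were fitted together using R 4.3.3 and limma 3.58.1 (lmFit on all 12 arrays, eBayes with trend, 8 residual degrees of freedom) in 6 comparisons, each adjusted by Benjamini-Hochberg over the 18625 kept probe sets at 0.05. The fit was tested on simulated data with independent normal noise and, for each probe set, the same spread in all groups. Groups of unlike spread were not simulated, such as those of Hey1 (log2 SD 0.022 in SS control and 0.94 in SS HTV lungs). No batch or pairing is stated, and p-values rest on the spread between the arrays of a group.

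The genes and the 11 lists (136 entries) were chosen with earlier results of these data known. Listed genes were named where they passed for HTV averaged over strains, up to 4 per list with the smallest p, and a few others as examples after their values were seen; pattern neighbours are the 5 nearest to Hey1 and the 3 nearest to each other changed gene. Alternatives were pseudocounts of 1 and 64, no filter or the 60th percentile, quantile normalization, median centring, array weights, the compared arrays alone, averaging a gene's probe sets and each array left out. Sequences are from RefSeq (GRCr8).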

Additional observations from a re-analysis of the deposited data

How the results depend on the processing

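Over 22 alternatives, 8 of the 20 differences that passed kept their call in each one that tested them, 12 lost it in some, and none turned its sign. For HTV averaged over strains, Dll4 (brighter probe set, -0.67 to -0.43, adjusted p up to 0.0421), Hey1 (-1.93 to -1.31, up to 0.00564), Hey2 (-0.75 to -0.47, up to 0.0375) and Heyl (0.75 to 1.18, up to 0.00679) kept it in all 22. The second Heyl probe set passed in the 16 that tested it, averaged and within each strain, and these calls are among the 8. That probe set was tested only because its HTV values are higher, so its calls are not read as support. The brighter Notch4 probe set kept it in 20 of 21 and the second in 7 of 20 (adjusted p up to 0.114). Of the 64 differences that did not pass, 9 passed in some alternative, the second Dll4 probe set among them in 7 of 21 for HTV averaged over strains.

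Counts of genes called moved as follows. Averaged over strains, 2 higher became 1 with the 60th percentile filter and without SS HTV 2 and BN HTV 3 together, the alternative added after the data were seen. In SS lungs, 2 higher became 1 with no filter, the 60th percentile filter, the compared arrays alone, or without SS HTV 2 and BN HTV 3, and were 1 to 2 over single arrays left out. There, 1 lower became 0 with no filter or the compared arrays alone and 2 with array weights or without SS HTV 2 and BN HTV 3, and was 0 to 2 over single arrays left out. In BN lungs, 0 higher became 1 (Heyl) with the mean over probe sets, and 2 lower became 1 with no filter or the compared arrays alone and were 0 to 2 over single arrays left out. Between strains in HTV lungs, 1 lower became 0 with no filter or without SS HTV 2 and BN HTV 3 and 2 with array weights or the compared arrays alone, and was 0 to 2 over single arrays left out. Between control lungs, 3 lower became 1 with no filter or median centring and were 0 to 4 over single arrays left out. With no filter more probe sets are tested, and each array left out leaves fewer samples; beyond that the cause was not tested. No paired analysis was possible because the replicate numbers were given in accession order and pair no animals.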
